A study of Homo sapiens with 64 samples.

Results

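The 2 single agents, TMP195 and MYCi975, were set directly against each other in H1703, an established human non-small cell lung cancer line. The comparison used 4 TMP195 libraries and 4 MYCi975 libraries, chosen by their line and treatment labels, which are 8 of 64 total RNA libraries in the study. The study treated 4 lines in culture for 24 h with TMP195, MYCi975, both compounds or vehicle. The question here was which genes separate the 2 single agents.

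H1703 cells received 25 µM TMP195, which inhibits the class IIa histone deacetylases (HDAC4, HDAC5, HDAC7, HDAC9). The compared group received 5 µM MYCi975, an inhibitor of the transcription factor MYC. The combination (25 µM TMP195 with 5 µM MYCi975) and vehicle (DMSO) groups of H1703, with 4 libraries each, served to place each agent. The doses of the 2 agents differ, so each contrast compares these treatments as given and not the compounds dose for dose. Nothing in the labels states that the replicates came from separate cultures, and p-values then measure only the spread between these samples, which may be technical.

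Sterol regulatory element-binding proteins (SREBPs) are transcription factors held in the endoplasmic reticulum (ER) membrane by SCAP and the INSIG proteins when sterols are plentiful. When sterols fall they move to the Golgi, are cut, and switch on genes for cholesterol and fatty acid synthesis. The unfolded protein response acts from the same membrane: when proteins misfold in the ER, the factors ATF6, XBP1 and ATF4 raise chaperones, folding enzymes and amino acid genes. CREB3L2 is another ER-anchored factor, released by cleavage in the Golgi, that acts on genes of the secretory pathway.

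The start regions of 4 genes are printed because SREBF2, INSIG1 and CREB3L2 did not overlap between the agents, and FICD carries the full ER stress element. Each runs 5′ to 3′ over 250 bases before and 50 bases after the gene's start, from RefSeq, GRCh38.p14. Capitals mark matches to the sterol regulatory element TCACNCCAC, the CCAAT box and the ER stress response element (CCAAT and CCACG with 9 bases between them), searched on both strands, so that a CCAAT box on the other strand reads ATTGG. SREBF2 lies at chr22:41832855-41833154 (plus strand), INSIG1 at chr7:155297628-155297927 (plus strand), CREB3L2 at chr7:138002037-138002336 (minus strand) and FICD at chr12:108515027-108515326 (plus strand).
SREBF2: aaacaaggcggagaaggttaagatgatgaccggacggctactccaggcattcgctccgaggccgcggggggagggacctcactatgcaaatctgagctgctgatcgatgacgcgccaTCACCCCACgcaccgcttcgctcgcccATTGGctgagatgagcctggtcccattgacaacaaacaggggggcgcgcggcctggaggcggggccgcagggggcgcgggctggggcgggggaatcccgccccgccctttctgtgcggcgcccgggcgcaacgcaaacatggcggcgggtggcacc
INSIG1: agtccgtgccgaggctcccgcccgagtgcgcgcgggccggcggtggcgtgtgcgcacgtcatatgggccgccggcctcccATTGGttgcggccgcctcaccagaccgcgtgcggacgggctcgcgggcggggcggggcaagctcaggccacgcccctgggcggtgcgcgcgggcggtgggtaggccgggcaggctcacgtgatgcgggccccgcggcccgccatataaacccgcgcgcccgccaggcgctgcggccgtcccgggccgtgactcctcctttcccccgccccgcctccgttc
CREB3L2: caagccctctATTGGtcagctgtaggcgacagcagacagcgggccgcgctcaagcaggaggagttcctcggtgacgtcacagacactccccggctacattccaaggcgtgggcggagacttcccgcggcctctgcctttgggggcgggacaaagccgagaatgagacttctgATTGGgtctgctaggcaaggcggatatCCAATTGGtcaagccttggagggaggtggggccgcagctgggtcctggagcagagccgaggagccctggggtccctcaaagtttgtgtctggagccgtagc
FICD: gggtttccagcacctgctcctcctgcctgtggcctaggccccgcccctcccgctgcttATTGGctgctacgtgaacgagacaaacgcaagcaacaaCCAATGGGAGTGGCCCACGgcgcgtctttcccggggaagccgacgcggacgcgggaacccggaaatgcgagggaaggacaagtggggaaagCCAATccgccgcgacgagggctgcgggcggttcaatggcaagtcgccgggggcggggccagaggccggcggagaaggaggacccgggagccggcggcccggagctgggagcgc
The SREBF2 region holds a sterol element from -133 to -125 relative to the start and 1 CCAAT box. INSIG1 has 1 CCAAT box, and CREB3L2 has 4, of which 2 overlap in CCAATTGG. FICD has 3 CCAAT boxes, and one of them opens its ER stress element, which runs from -154 to -136.

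The sterol element was found in 1.13%, the CCAAT box in 34.6% and the ER stress element in 0.0769% of 35116 RefSeq start regions of the same length. Of the 28 genes that the selection rule named, other than the inhibitors' targets, 26 had such a region. Among the 13 of these that were lower with TMP195, 9 held a CCAAT box and 1 (SREBF2) the sterol element. Among the 13 that were higher, 11 held a CCAAT box and 1 (FICD) the ER stress element. Other elements were searched too and are not marked. The E-box CACGTG, bound by MYC and MAX, was in 7.26% of start regions, in 3 of the 13 lower genes (INSIG1 among them, from -55 to -50) and in 1 of the 13 higher. The ATF4 element core TGATGNAA (3.62%) was in 0 and 1, and the unfolded protein response element TGACGTGG (0.729%) in 0 and 0. These matches are a description of letters in a window and no evidence of binding.

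The 8 libraries held 18243153 to 25374986 counted reads with TMP195 and 19719225 to 29738700 with MYCi975, a difference within the spread between libraries (exact two-sided permutation test, p = 0.2, n = 4 each, with 0.0286 as the smallest p possible). All 8 correlated best with H1703 over 2000 variable genes, with 0.988 as the lowest correlation against 0.297 as the highest with another line. In the H1703 groups, 5 of 16 libraries (replicate 4 of each group and combination replicate 2) had 6.52 to 7.84% mitochondrial ribosomal RNA, against 10.1 to 13.7% in the other 11. The labels name no library batch, and these 5 are grouped by this share alone and called the second library set here. The column name of combination replicate 2 is written in another form than those of replicate 4. Whether it was prepared with them is not stated. The 6 epithelial markers summed to 36.8 to 61.6 CPM (counts scaled by library size) with TMP195 and 44.4 to 64.4 CPM with MYCi975, mostly KRT8 and KRT18, with EPCAM near 0 (means of 0.147 CPM and 0.148 CPM). The 5 mesenchymal markers summed to 2190 to 2490 CPM with TMP195 and 2260 to 3080 CPM with MYCi975. Summed leukocyte markers stayed at or below 0.631 CPM with TMP195 and 0.48 CPM with MYCi975, with PTPRC at 0 in all 8 libraries. In such bulk RNA, fewer cells of a type and less RNA per cell cannot be told apart.

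On the group means few genes separated TMP195 from MYCi975 in H1703 beyond the spread between libraries, and CREB3L2, SREBF2 and INSIG1 among them act at the ER membrane. With edgeR's quasi-likelihood test on the 4 group means and an adjusted p below 0.05 over 20827 genes, 4 genes were called (0.0192%). CREB3L2 was higher with TMP195 (0.0048% called higher), and 3 genes, among them SREBF2 and INSIG1, were lower (0.0144% called lower). At an unadjusted p below 0.05 there were 1156 genes. Against vehicle each agent on its own changed far more, with 2009 genes (9.65%) for TMP195, 6.07% higher and 3.57% lower, and 2116 (10.2%) for MYCi975, 6.04% higher and 4.12% lower. These 2 comparisons share the vehicle libraries.

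Libraries with the same replicate number moved together: the correlations of their deviations from the group means were 0.212 to 0.557, against -0.324 to 0.122 between different numbers. For each gene the deviations in a group of 4 sum to 0, so these ranges are not independent. With the replicate number as a block the same test called 94 genes (0.451%), 49 higher (0.235%) and 45 lower (0.216%) with TMP195, and these included all 4. All 94 differed in the same direction in 4 of 4 same-numbered pairs, which the blocked test itself favours. In 67 of them the 2 groups did not overlap in CPM. Over all genes tested, 380 (1.82%) were higher and 346 (1.66%) lower with TMP195 without overlap. The median size of the 94 changes was 0.43 on the log2 scale, and 5 of them were 1 or larger. The blocked count fell to 11 without replicate 1 and to 9 without replicate 3, was 320 without combination replicate 2, the library of the second set with another number, and was 975 within the 11 libraries of the first set. Genes called only with the block are therefore given as such.

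SREBF2 and INSIG1, lower with TMP195, both belong to the sterol control circuit. SREBF2 (chromosome 22, 41833079 to 41907308, GRCh38) encodes SREBP-2, the main activator of cholesterol synthesis genes. Its level was 48.8, 48.3, 55.1 and 50.3 CPM in TMP195 replicates 1 to 4, against 94.4, 84.9, 91.4 and 104 CPM in MYCi975 replicates 1 to 4. Every TMP195 library lay below every MYCi975 library. The means were 50.6 ± 3.12 CPM with TMP195 and 93.6 ± 7.77 CPM with MYCi975 (SD, n = 4 each), a log2 change of -0.89 ± 0.10 (standard error, edgeR adjusted p = 5.89e-04, and 7.2e-07 with the block). The combination held 56.7, 51, 56.3 and 71.9 CPM and vehicle 93.9, 96.4, 96.9 and 115 CPM, so that the combination lay near TMP195 and vehicle near MYCi975. Against vehicle SREBF2 fell by 0.99 ± 0.10 on the log2 scale with TMP195 (adjusted p = 1.62e-05), and with MYCi975 its change was -0.10 ± 0.10 (adjusted p = 0.585). Its antisense partner SREBF2-AS1, at a mean of 8.30 CPM over the 8 libraries, changed by -0.63 (adjusted p = 0.0269 with the block). Whether the counting used strand is not given in the sources used here, so reads of the pair may be mixed.

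INSIG1 (chromosome 7, 155297776 to 155310235) encodes the ER protein that holds SREBPs back and is itself switched on by them. It stood at 8.73, 7.47, 7.03 and 9.08 CPM in the TMP195 libraries, against 20.2, 14, 14.6 and 20 CPM in the MYCi975 libraries. The groups did not overlap, although the MYCi975 libraries fell into a higher and a lower pair. INSIG1 was lower with TMP195 by -1.09 ± 0.13 (adjusted p = 8.45e-04, and 2.92e-06 with the block). Its mean was 10.5 ± 0.827 CPM in the combination and 21.6 ± 1.62 CPM in vehicle (SD, n = 4 each). Against vehicle it fell with TMP195 by 1.42 ± 0.13 (adjusted p = 4.33e-06), and with MYCi975 its value was -0.33 ± 0.13 (adjusted p = 0.11), which passed only with the block (0.00912).

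CREB3L2 (chromosome 7, 137874979 to 138002067) was the gene with the smallest p in the comparison. Its level was 62.1, 55.3, 58.7 and 58.5 CPM in the TMP195 libraries, against 34.3, 30.6, 31.1 and 30.2 CPM in the MYCi975 libraries. The 2 groups were far apart relative to their spread, with means of 58.6 ± 2.76 CPM for TMP195 and 31.5 ± 1.9 CPM for MYCi975 (SD, n = 4 each). CREB3L2 was higher with TMP195 by 0.89 ± 0.08 (adjusted p = 1.79e-05, and 4.03e-07 with the block). The combination held 63.2, 64.4, 72.7 and 62 CPM and vehicle 32.4, 31.9, 30.4 and 29.9 CPM. TMP195 raised it by 0.91 ± 0.08 against vehicle (adjusted p = 1.68e-06), whereas its value with MYCi975 was 0.02 ± 0.08 (adjusted p = 0.921).

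**Figure D1:**
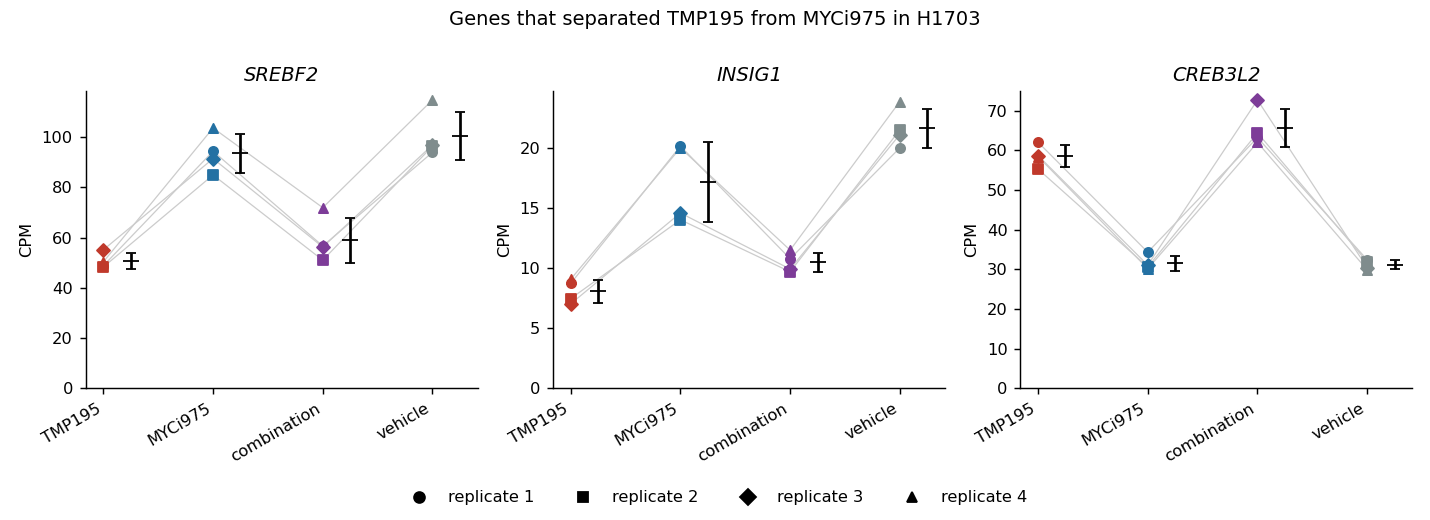
Level in CPM (vertical axes from 0) of SREBF2, INSIG1 and CREB3L2 in each H1703 library, by treatment (TMP195, MYCi975, combination, vehicle); marker shapes give the replicate number, grey lines join equal numbers, and black bars are the mean ± SD of 4 libraries. TMP195 and MYCi975 do not overlap in any of the 3 genes, and the combination means lie nearer to TMP195.

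CREB3L2 was called in 21 of 21 alternative analyses of the group means, with 0.00701 as its highest adjusted p. SREBF2 was called in 19 of 21 and INSIG1 in 18. Without replicate 1 both SREBF2 and INSIG1 had an adjusted p of 0.0996, and with 1 fit of all 64 libraries SREBF2 had 0.165 and INSIG1 0.425. INSIG1 also missed the threshold when the 8 libraries were fitted alone (0.0825). With the replicate block these 3 genes were called in 11 of 11 alternatives.

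Further genes of sterol and fatty acid metabolism were lower with TMP195, and these calls rest on the replicate block. STARD4, which carries sterols between membranes, had 2.97, 2.56, 4.44 and 4.97 CPM in the TMP195 libraries, against 8.8, 7.85, 6.66 and 10.8 CPM in the MYCi975 libraries. Its groups did not overlap, and its blocked change of -1.20 ± 0.15 was the largest fall among the 94 genes (adjusted p = 3.19e-04, and 0.072 without the block). SCD, the desaturase that makes oleic acid, had 382, 656, 547 and 737 CPM with TMP195, against 806, 1019, 900 and 1236 CPM with MYCi975. In both groups replicate 1 was lowest and replicate 4 highest, and SCD was lower with TMP195 in every pair, with differences of -1.08 to -0.64 on the log2 scale. The blocked change of SCD was -0.80 ± 0.09 (adjusted p = 3.53e-05), whereas the adjusted p was 0.499 without the block. LSS, the cyclase that closes the sterol rings, had 7.27, 6.67, 6.92 and 5.86 CPM with TMP195, against 12.7, 10.3, 10.6 and 10.4 CPM with MYCi975. LSS was lower in every pair, with a blocked change of -0.72 ± 0.12 (adjusted p = 0.0053, and 0.0583 without the block).

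Among the regulators and handlers of sterols, 3 of 18 tested genes were called lower and 0 higher on the group means, against 0.0144% and 0.0048% of all genes. With the block 4 of the 18 were lower (SREBF2, INSIG1 and STARD4 among them) and 1 was higher (OSBPL6, a lipid-binding protein of the oxysterol-binding family, 65.9 ± 2.72 CPM with TMP195 and 49.3 ± 2.92 CPM with MYCi975, SD, n = 4 each, 0.42 ± 0.08, adjusted p = 0.0243). The median change of the list was -0.16, against -0.0015 for all genes tested, and 14 members had values below 0. SCAP, the escort of SREBPs, had a value of 0.00, and SREBF1, which encodes SREBP-1, had -0.22 (adjusted p = 0.22 with the block).

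Of 22 genes of cholesterol synthesis, none was called on the group means, although 9 lay below 0 at an unadjusted p below 0.05 and 0 above, and DESeq2 called 4 lower. Over all genes these counts were 584 below and 572 above, and 24 lower with DESeq2. With the block 4 of the 22 were lower, against 0.216% of all genes. Beside LSS these were IDI1, the isomerase that supplies the isoprene unit (26.5 ± 1.56 CPM with TMP195 and 36.8 ± 3.42 CPM with MYCi975, -0.47 ± 0.07, adjusted p = 0.00309), DHCR7, which makes the last step to cholesterol (15.1 ± 1.57 CPM and 21.4 ± 3.56 CPM in the same order, -0.50 ± 0.09, adjusted p = 0.0168), and HMGCS1, an early enzyme of the pathway (112 ± 7.12 CPM and 144 ± 18.4 CPM, -0.36 ± 0.07, adjusted p = 0.0201, SD and n = 4 each). The median of the list was -0.22 and 18 of 22 values lay below 0, against 10495 of 20827 over all genes. FDPS, which makes farnesyl pyrophosphate, had 0.03. The 4 calls became 0 without replicate 1 and 0 without replicate 3, and the number called lower ran from 0 to 9 over the blocked alternatives.

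Of 18 tested genes of fatty acid synthesis and desaturation, none was called on the group means (7 below 0 and 0 above at an unadjusted p below 0.05, and 1 lower with DESeq2), and 5 were lower with the block. Over all 20827 genes, 584 lay below 0 and 572 above at that p, 24 were lower with DESeq2 and 0.216% were lower with the block. ACACA, which makes malonyl-CoA, had 89.2, 110, 96.1 and 95.9 CPM with TMP195, against 137, 150, 139 and 128 CPM with MYCi975. Its groups did not overlap, with a blocked change of -0.51 ± 0.07 (adjusted p = 5.22e-04). FASN, the fatty acid synthase, averaged 259 ± 31 CPM with TMP195 and 361 ± 71.5 CPM with MYCi975 and the groups overlapped (blocked change -0.47 ± 0.09, adjusted p = 0.0257). ACSL3, which activates fatty acids for lipid droplets, averaged 91.9 ± 12.4 CPM with TMP195 and 126 ± 23.2 CPM with MYCi975 (-0.45 ± 0.08, adjusted p = 0.011). FADS1, the delta-5 desaturase, was lower by -0.31 ± 0.06 in the blocked fit (adjusted p = 0.0255) although its groups overlapped. SCD is the fifth. The list had a median of -0.12, with 13 of 18 values below 0, and its number of calls was 2 without replicate 1 and 1 without replicate 3.

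DGAT2, which makes triglycerides, and KLF5, a Krüppel-like transcription factor, were also lower with TMP195. DGAT2 had 13.1, 12.1, 11.6 and 11.4 CPM with TMP195, against 18.2, 16, 18.2 and 20.1 CPM with MYCi975, without overlap (blocked change -0.59 ± 0.09, adjusted p = 0.00347). KLF5 had 11.5, 13.5, 12 and 10.4 CPM with TMP195, against 17.9, 19.8, 18.2 and 17.3 CPM with MYCi975, again without overlap (-0.63 ± 0.10, adjusted p = 0.00382). MXD4, a MAX partner that opposes MYC, averaged 8.15 ± 1.83 CPM with TMP195 and 12.2 ± 1.2 CPM with MYCi975 (SD, n = 4 each, blocked change -0.59 ± 0.12, adjusted p = 0.0257).

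On the other side stood genes of the ER folding machinery. Of 27 ER chaperones and genes of the unfolded protein response, 1 (CREB3L2) was higher and 0 lower on the group means, and 8 were higher and 0 lower with the block. Over all genes 0.0048% were higher on the group means and 0.235% with the block. DNAJB9, a co-chaperone of the ER chaperone BiP, had 21.2, 18.2, 18.5 and 22.4 CPM with TMP195, against 11.1, 10.7, 10 and 15.2 CPM with MYCi975. Every TMP195 library was above every MYCi975 library. The blocked change was 0.78 ± 0.09 (adjusted p = 1.08e-04, and 0.0583 without the block). MANF, a secreted folding factor of the ER, had 40.5, 36.1, 38.2 and 34.2 CPM with TMP195, against 26.5, 27.3, 29.3 and 17.5 CPM with MYCi975. These groups did not overlap either, and MYCi975 replicate 4, of the second library set, was the lowest (blocked change 0.59 ± 0.10, adjusted p = 0.00921, and 0.499 without the block).

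The other ER members called higher with the block had smaller changes. DNAJC3, another co-chaperone of BiP, averaged 129 ± 14 CPM with TMP195 and 102 ± 5.14 CPM with MYCi975 (0.34 ± 0.06, adjusted p = 0.0123). XBP1, whose mRNA is spliced by the stress sensor IRE1, averaged 74.1 ± 5.5 CPM with TMP195 and 57.8 ± 2.81 CPM with MYCi975 (0.36 ± 0.07, adjusted p = 0.0226). HYOU1, a BiP exchange factor, averaged 567 ± 20 CPM with TMP195 and 444 ± 10.1 CPM with MYCi975 (0.35 ± 0.07, adjusted p = 0.0346). The lectin chaperone CANX changed by 0.30 and the disulphide isomerase PDIA6 by 0.31 (adjusted p = 0.0123 and 0.0439). The median over the 27 genes was 0.23, and 22 had values above 0, against 10332 of 20827 over all genes. HSPA5, which encodes BiP itself, had 0.35 with an adjusted p of 0.19 in the blocked fit, and HERPUD1 had 0.02. Without replicate 1, and likewise without replicate 3, 2 of the list's genes were called higher in place of 8.

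Of 48 tested ATF4 targets, genes of amino acid supply and the integrated stress response, none was called on the group means (9 above 0 and 0 below at an unadjusted p below 0.05, and 2 higher with DESeq2), and 4 were higher with the block. Over all 20827 genes, 572 lay above 0 and 584 below at that p, 24 were higher with DESeq2 and 0.235% were higher with the block. DDIT4, an inhibitor of the growth kinase complex mTORC1, had 157, 136, 133 and 123 CPM with TMP195, against 79.8, 73.2, 72.8 and 93.4 CPM with MYCi975. The groups did not overlap, and the blocked change was 0.77 ± 0.10 (adjusted p = 2.46e-04, and 0.0583 without the block). Both agents raised DDIT4 above vehicle, which averaged 36.4 ± 6.97 CPM (SD, n = 4), by 1.92 ± 0.14 with TMP195 and 1.13 ± 0.14 with MYCi975 (adjusted p = 3.1e-07 and 1.27e-04 on the group means). SESN2, a leucine sensor, had 62.6, 60.7, 59.6 and 76 CPM with TMP195, against 41, 40.5, 39.7 and 60.5 CPM with MYCi975. Here the groups touched, since MYCi975 replicate 4 exceeded TMP195 replicate 3, and each pair was still higher with TMP195 (0.52 ± 0.09, adjusted p = 0.0123 with the block). WARS1, the tryptophan tRNA synthetase, averaged 181 ± 12 CPM with TMP195 and 135 ± 4.7 CPM with MYCi975 (0.43 ± 0.07, adjusted p = 0.00483 with the block). SLC1A5, a glutamine transporter, averaged 195 ± 18.7 CPM with TMP195 and 158 ± 15.7 CPM with MYCi975 (0.31 ± 0.06, adjusted p = 0.0226 with the block). The list had a median of 0.13, and 40 of 48 values were above 0, against 10332 of 20827 over all genes. ASNS, the asparagine synthetase, had -0.03 and ATF3 0.08. The 4 calls became 1 without replicate 1 and 1 without replicate 3.

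**Figure D2:**
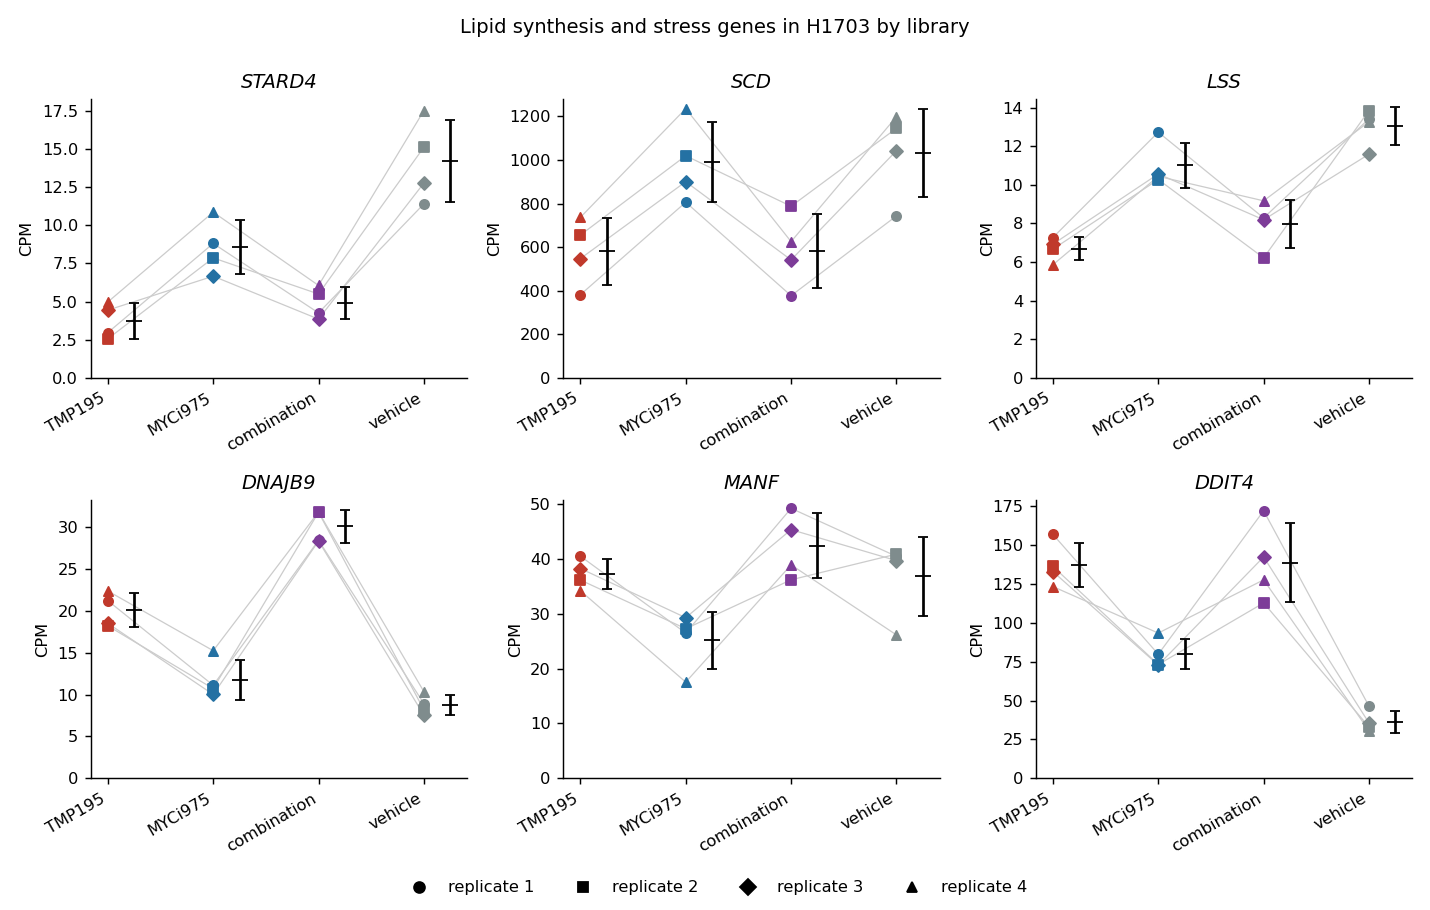
Level in CPM (vertical axes from 0) of STARD4, SCD, LSS, DNAJB9, MANF and DDIT4 in each H1703 library, by treatment, with marker shapes for the replicate number, grey lines between equal numbers and black bars for the mean ± SD of 4 libraries. In all 6 genes the TMP195 and MYCi975 libraries do not overlap; SCD runs from 382 to 737 CPM with TMP195 and from 806 to 1236 CPM with MYCi975, in the same order of replicates.

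Other genes named by the same rule were higher with TMP195 in the blocked fit. NUCB2, a calcium-binding protein, averaged 48.1 ± 7.11 CPM with TMP195 and 33 ± 1.39 CPM with MYCi975 (0.54 ± 0.09, adjusted p = 0.00861). FICD, the enzyme that modifies BiP with AMP and whose start region is printed above, averaged 14.3 ± 1.77 CPM with TMP195 and 9.77 ± 0.671 CPM with MYCi975 (0.55 ± 0.11, adjusted p = 0.0255). SEC24D, a cargo adaptor of the COPII coat that buds from the ER, averaged 45.2 ± 7.13 CPM with TMP195 and 32.5 ± 2.38 CPM with MYCi975 (0.47 ± 0.09, adjusted p = 0.0218). Among 20 genes of the COPII coat and ER export it was the one called higher, and SEC31A, of the outer coat, the one called lower (195 ± 12.9 CPM with TMP195 and 246 ± 21.4 CPM with MYCi975, -0.33 ± 0.06, adjusted p = 0.00785), with a list median of 0.01. Over all genes 0.235% were called higher and 0.216% lower with the block. Without replicate 1, and likewise without replicate 3, the blocked fit called 0 of the 20 higher and 0 lower. B3GAT1, a glucuronyltransferase, changed by 0.64 ± 0.12 (adjusted p = 0.0218) and L3MBTL3, a reader of methylated lysine, by 0.50 ± 0.11 (adjusted p = 0.0364).

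A few more of the 94 genes were picked after their values were seen. SEC63, a part of the ER translocon, averaged 311 ± 20.5 CPM with TMP195 and 241 ± 6.44 CPM with MYCi975 (0.37 ± 0.06, adjusted p = 0.0119 with the block). SPCS2, of the signal peptidase, averaged 24.7 ± 1.87 CPM with TMP195 and 18.5 ± 2.54 CPM with MYCi975 (0.43 ± 0.09, adjusted p = 0.0372), and the ER cyclophilin PPIB 201 ± 13 CPM and 153 ± 28.6 CPM in the same order (0.41 ± 0.08, adjusted p = 0.0226). On the lower side, GOLGA2, a matrix protein of the Golgi, averaged 75.4 ± 2.46 CPM with TMP195 and 96.5 ± 4.65 CPM with MYCi975 (-0.36 ± 0.07, adjusted p = 0.0226). ACBD3, another Golgi protein, averaged 68.6 ± 6.09 CPM with TMP195 and 89.5 ± 11.4 CPM with MYCi975 (-0.38 ± 0.07, adjusted p = 0.0123). FOS, the immediate early factor, was low at 3.13 ± 1.11 CPM with TMP195 and 1.43 ± 0.623 CPM with MYCi975 (1.14 ± 0.24, adjusted p = 0.0351, SD and n = 4 for all of these).

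The vehicle libraries place each agent. With the block, 39 of the 94 genes were called against vehicle for TMP195 and not for MYCi975 (24 higher and 15 lower with TMP195 than with MYCi975), and 24 for MYCi975 and not for TMP195 (10 higher and 14 lower). Calls of this kind do not test the difference, which is the direct contrast itself. With the block 4961 genes (23.8%) passed against vehicle for TMP195 and 5328 (25.6%) for MYCi975. In 19 genes (10 higher and 9 lower) both agents moved the same way and TMP195 lay farther from vehicle, as with STARD4, DNAJB9 and DDIT4, and in 2 MYCi975 lay farther. The other genes were 7 called for neither agent and 3 called on opposite sides of vehicle.

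SCD was of the TMP195 kind. It fell with TMP195 by 0.85 ± 0.09 against vehicle (adjusted p = 6.88e-07 with the block), whereas its value with MYCi975 was -0.05 ± 0.09 (adjusted p = 0.726). MANF was of the MYCi975 kind: its value with TMP195 was 0.04 ± 0.10 (adjusted p = 0.834), and it fell with MYCi975 by 0.55 ± 0.10 (adjusted p = 4.5e-04). Its mean was 37.3 ± 2.71 CPM with TMP195, 25.1 ± 5.21 CPM with MYCi975, 42.4 ± 5.94 CPM in the combination and 36.8 ± 7.12 CPM in vehicle (SD, n = 4 each). The combination stood beside TMP195 and vehicle, above MYCi975. GOLGA2 and SEC31A were of that kind in the other direction, rising with MYCi975 by 0.46 and 0.43 (adjusted p = 9.4e-05 and 1.71e-05), against values of 0.10 and 0.10 with TMP195.

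The 3 genes on opposite sides of vehicle were HSPA4L, DGAT2 and KLF5, each with the block alone. HSPA4L, a cytosolic chaperone of the Hsp110 family, had 88.7, 82.6, 75.1 and 102 CPM with TMP195, against 63.2, 57.1, 56.4 and 67.5 CPM with MYCi975, and 72.6 ± 8.32 CPM in vehicle (SD, n = 4). It rose with TMP195 by 0.26 ± 0.07 and fell with MYCi975 by 0.25 ± 0.07 (adjusted p = 0.00751 and 0.0111). DGAT2 fell with TMP195 by 0.30 ± 0.09 and rose with MYCi975 by 0.29 ± 0.09 (adjusted p = 0.0198 and 0.0213), and KLF5 fell by 0.31 ± 0.10 and rose by 0.32 ± 0.10 (adjusted p = 0.029 and 0.0166). The combination averaged 91.1 ± 7.76 CPM for HSPA4L and 11.7 ± 0.95 CPM for DGAT2, on the TMP195 side, and 17 ± 2.45 CPM for KLF5, on the MYCi975 side. The number of such genes was 0 on the group means, 0 with the block when replicate 1 or replicate 3 was left out, and 12 within the first set.

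**Figure D3:**
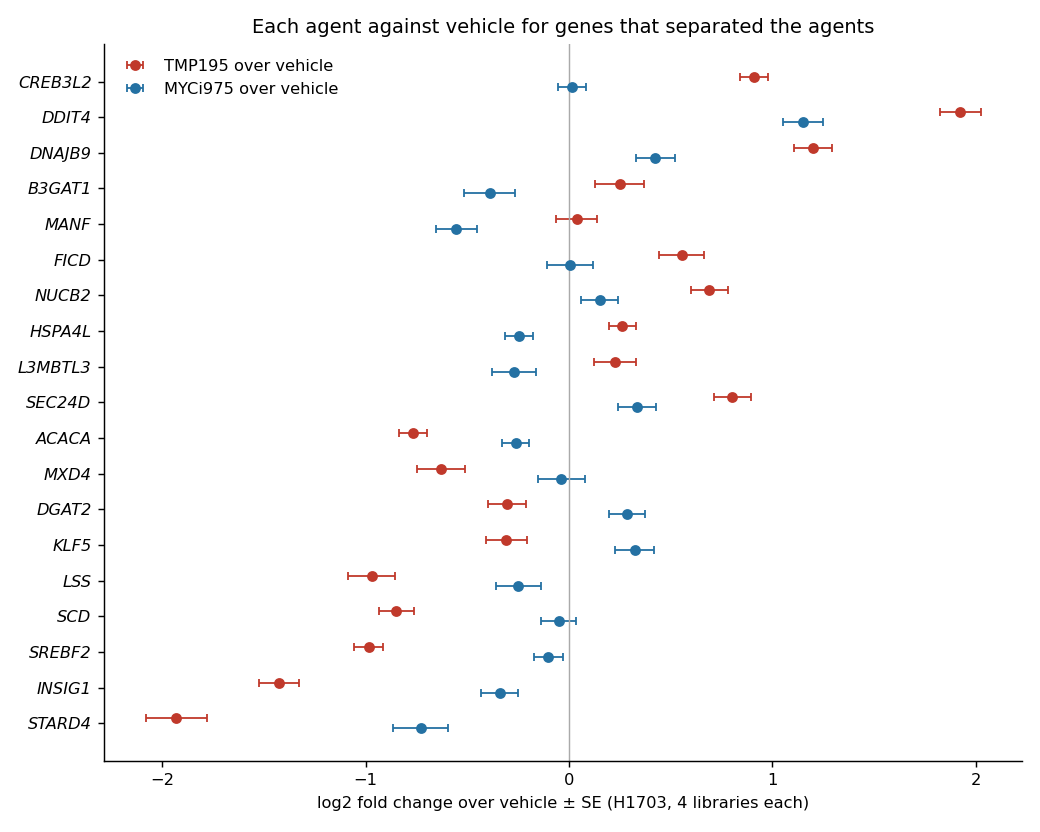
Log2 fold change over vehicle (± standard error) with TMP195 and with MYCi975 in H1703 for 19 genes that separate the agents, from the fit with the replicate block; both contrasts share the 4 vehicle libraries. SREBF2, SCD and CREB3L2 move with TMP195 and stay near 0 with MYCi975, MANF shows the reverse, and HSPA4L, DGAT2 and KLF5 lie on opposite sides of 0.

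None of the inhibitors' targets was called between the agents in either fit of the 16 libraries. MYC averaged 84.9 ± 3.97 CPM with TMP195 and 97.1 ± 10.8 CPM with MYCi975, with a change of -0.19 ± 0.12 (adjusted p = 0.975). HDAC5 averaged 83.7 ± 18.5 CPM with TMP195 and 76.5 ± 8.04 CPM with MYCi975 (0.13 ± 0.16, adjusted p = 1), and both stood above the 44.5 ± 6.93 CPM of vehicle (adjusted p = 0.00179 for TMP195 and 0.00496 for MYCi975). HDAC4, HDAC7 and HDAC9 had values of -0.02 ± 0.09, 0.12 ± 0.13 and -0.03 ± 0.13. Since the compounds bind proteins, RNA levels of the targets are no check of the treatment labels. The 16 class IIa deacetylase, MEF2 and target genes had a median of -0.03 (0.03 within the first set), with 0 calls on the group means and with the block, 0 at an unadjusted p below 0.05 and 0 with DESeq2. With the block within the first set, 3 of them were called higher, among them HDAC5 (0.22, adjusted p = 0.0127). Over all 20971 genes of that fit, 501 were called higher.

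Most mitotic genes were lowered by both agents, and none was called between them in either fit of the 16 libraries. Against vehicle 41 of 49 mitotic genes fell with TMP195 and 44 with MYCi975 (medians -0.62 and -0.65). Over all 20827 genes 744 (3.57%) fell with TMP195 and 859 (4.12%) with MYCi975. Directly compared, the mitotic genes had a median of -0.02, with 0 called in either fit. At an unadjusted p below 0.05 there was 1 of them, against 5.55% of all genes, and DESeq2 called 0. The 53 genes of S phase and replication had a median of 0.15 and 50 values above 0, against 10332 of 20827 over all genes. None of the 53 was called in either fit (7 at an unadjusted p below 0.05, 0 with DESeq2). Within the first set their median was 0.03. Over the blocked alternatives 0 to 4 of the 53 were called higher and 0 to 1 lower. Of the mitotic genes 0 to 1 were called in each direction. Over all genes these alternatives called 4 to 501 higher and 5 to 474 lower. The 13 mRNAs encoded by mitochondrial DNA all had values below 0 (10495 of 20827 over all genes), with a median of -0.34. None was called in either fit (1 at an unadjusted p below 0.05, 0 with DESeq2). The number called lower depended on the libraries and the filter: 3 on the group means and 13 with the block within the 11 libraries of the first set, and, with the block, 6 without replicate 4, 4 without combination replicate 2 and 11 without the filter on low counts. Over all genes these fits called lower, in the same order, 30 and 474 of 20971, 70 of 20393, 149 of 21273 and 175 of 42937. Their share of all counts was 1.9 to 2.69% with TMP195 and 1.98 to 3.04% with MYCi975 (exact two-sided permutation test, p = 0.229, n = 4 each). That test ignores the replicate number. In replicates 1 to 4 the share was 1.9, 2.69, 2.38 and 2.14% with TMP195, against 2.76, 2.98, 3.04 and 1.98% with MYCi975. It was lower with TMP195 in replicates 1 to 3 and higher in replicate 4.

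**Figure D4:**
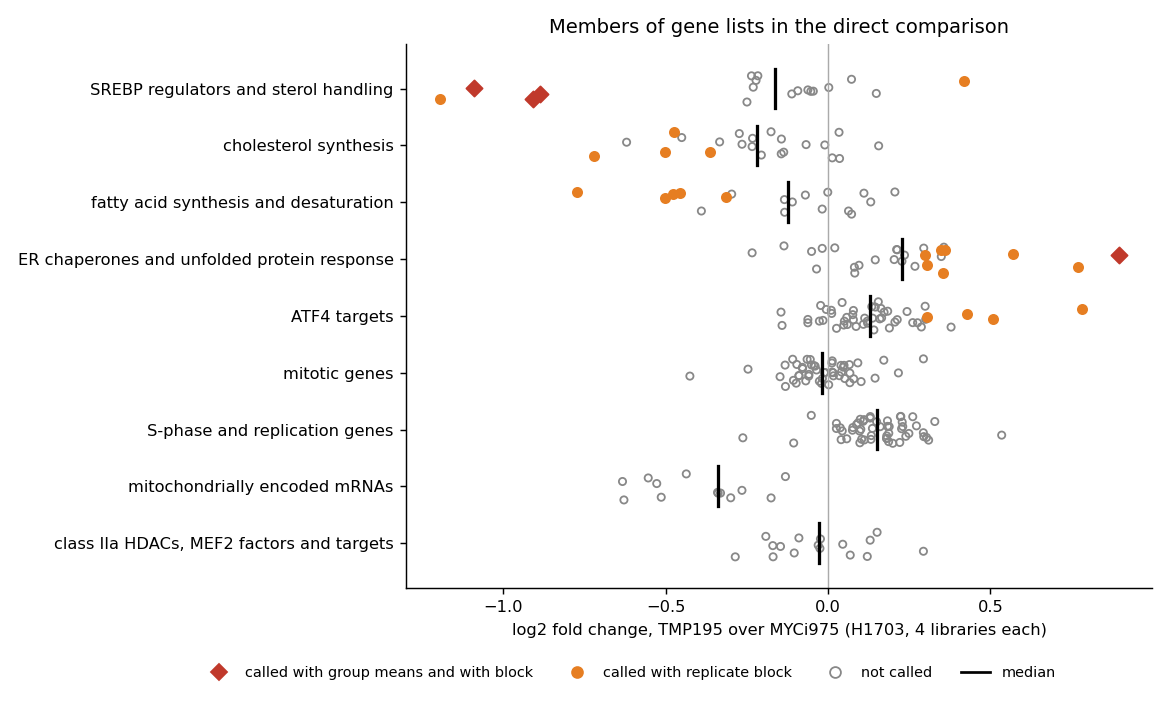
Log2 fold change of TMP195 over MYCi975 in H1703 for each tested gene of 9 lists, from the group means; red diamonds were called with and without the replicate block, orange points with the block alone, open points in neither, and bars are medians. Sterol and fatty acid lists lie to the left (medians -0.16, -0.22 and -0.12), ER chaperones and ATF4 targets to the right (0.23 and 0.13), and mitotic genes at -0.02.

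The direct contrast was then set beside that in H460 and H1755, other lung cancer lines given the same treatments, in 1 fit of 48 libraries. H838 was not included in this fit. Its libraries held 8.31 to 10.2% mitochondrial ribosomal RNA with TMP195 and 5.12 to 13.9% with MYCi975. With MYCi975 this share was as widely spread in the lines kept, at 9.34 to 19.1% in H460 and 7.78 to 17.9% in H1755. In this fit 25462 genes were tested. The contrast differed between H1703 and H460 for 21 genes (0.0825%), and between H1703 and H1755 for 2 (0.00785%). With the block these counts were 279 (1.1%) and 32 (0.126%). In H460, 7 libraries, among them replicates 1 and 2 of both agents, held counts for EEF1G, which was at 0 in the other 41 libraries of the 3 lines. For the differences from H460 described here, values without H460 replicates 1 and 2 are given as well, on the group means.

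For 4 sterol genes, INSIG1, HMGCS1, SREBF2 and IDI1, the contrast differed between H1703 and H460 on the group means, with values below 0 in H1703 and above 0 in H460. In this fit SREBF2 was itself called in H1703 (adjusted p = 0.023), INSIG1 with the block alone (0.133 on the group means, and 0.00506), and HMGCS1 and IDI1 in neither fit (1 and 1 on the group means, 0.409 and 0.142 with the block). In H460 INSIG1, HMGCS1 and IDI1 were called (adjusted p = 0.00182, 1.71e-05 and 2.09e-04), and SREBF2 with the block alone (0.00629). STARD4 was at -1.20 in H1703 and 0.05 in H460 (adjusted p = 1). INSIG1 averaged 7.38 ± 0.955 CPM with TMP195 and 15.8 ± 3.19 CPM with MYCi975 in H1703, but 61.1 ± 16.6 CPM with TMP195 and 25.6 ± 7.21 CPM with MYCi975 in H460 (scaled over the 3 lines, SD, n = 4 each). The 2 contrasts differed by -2.35 (adjusted p = 8.4e-05), and by -2.46 without the 8 H460 libraries of replicates 1 and 2 (adjusted p = 0.00341). HMGCS1 averaged 102 ± 7.63 CPM with TMP195 and 132 ± 17.6 CPM with MYCi975 in H1703, against 141 ± 29.1 CPM and 52.7 ± 11 CPM in H460. Its contrasts differed by -1.79 (adjusted p = 9.97e-05, and 0.00341 without those libraries). SREBF2 and IDI1 differed by -1.40 and -1.68 (adjusted p = 8.75e-04 and 2.38e-04). Without those libraries IDI1 still passed (adjusted p = 0.00871), and SREBF2, at -1.37, did not (0.142).

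H1755 lay on the side of H1703 for INSIG1, HMGCS1, SREBF2 and IDI1, although HMGCS1 and IDI1 were called there in neither fit. Their values in H1755 were -0.40 ± 0.18 for HMGCS1 and -0.50 ± 0.18 for IDI1 (adjusted p = 0.588 and 0.156 with the block). There the contrast was -0.56 ± 0.16 for SREBF2, -0.82 ± 0.22 for INSIG1 and -0.91 ± 0.22 for SCD, and none of the 3 passed on the group means (adjusted p = 0.359, 0.246 and 0.0874), while all did with the block (0.00324, 0.0371 and 1.5e-05). The difference from H1703 was not called for any of the 3 genes. CREB3L2 was 0.24 ± 0.14 in H1755 and 0.33 ± 0.14 in H460, below the 0.89 ± 0.14 of H1703, and this difference passed with the block alone, at 0.64 from H1755 and 0.56 from H460 (adjusted p = 5.35e-05 and 9.6e-05). Without H460 replicates 1 and 2 the difference from H460 was 0.63 (adjusted p = 1 on the group means). DNAJB9 was higher with TMP195 in all 3 lines, by 0.76 ± 0.18 in H1703, 0.89 ± 0.18 in H460 and 1.06 ± 0.18 in H1755 (adjusted p = 7.6e-06, 1.14e-07 and 8.25e-10 with the block). On the group means DNAJB9 passed in H460 and H1755 and not in H1703 (adjusted p = 0.00754, 0.00123 and 0.271). MANF had 0.57 ± 0.18 in H1703, 1.00 ± 0.17 in H460 and 0.71 ± 0.17 in H1755 (adjusted p = 0.0025, 5.86e-08 and 4.5e-05 with the block). On the group means MANF passed in H460 alone (adjusted p = 0.00136, against 0.988 in H1703 and 0.111 in H1755). For neither gene was a difference between lines called. Without its replicates 1 and 2, H460 had 0.77 for DNAJB9 and 0.88 for MANF.

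**Figure D5:**
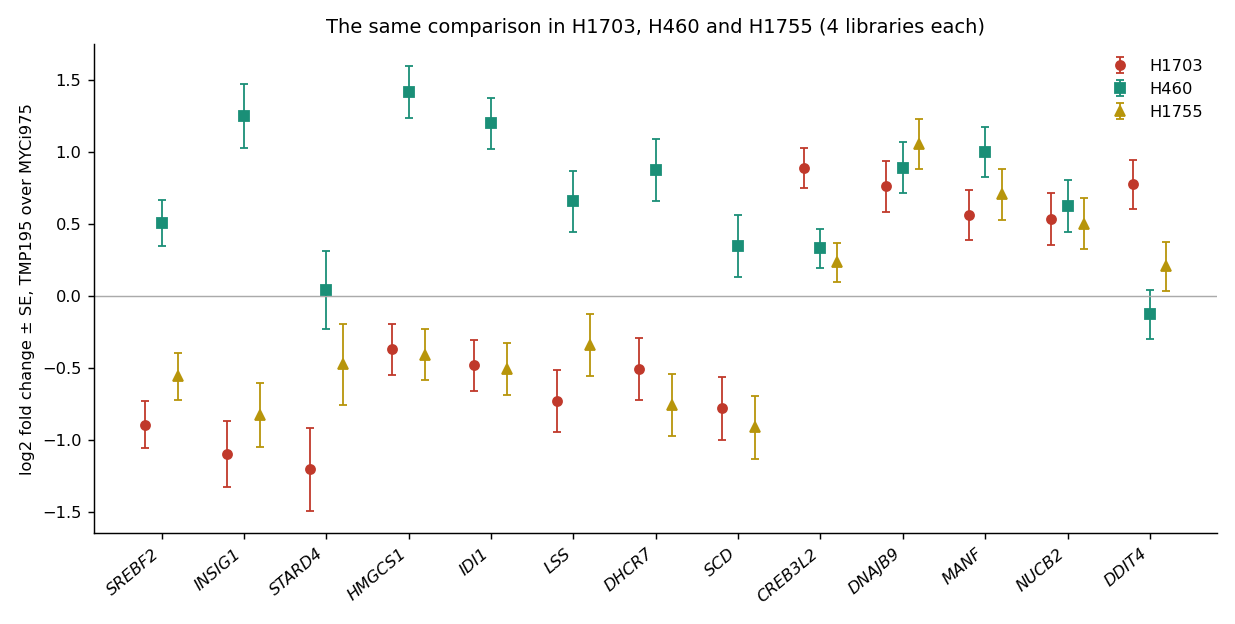
Log2 fold change of TMP195 over MYCi975 (± standard error) for 13 genes in H1703, H460 and H1755, from 1 fit of 48 libraries with 4 per group. Sterol genes such as INSIG1 and HMGCS1 are below 0 in H1703 and H1755 and above 0 in H460, while DNAJB9 and MANF are above 0 in all 3 lines.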

How the data were processed

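RNA of H1703 was measured in 16 libraries (4 each of TMP195, MYCi975, combination and vehicle), and the deposited table holds raw counts per gene as the authors made them. Trimmomatic, STAR, featureCounts and the GRCh38 build are named in the data processing field, per the submitters' processing notes, and versions, annotation and strand setting are not given in the sources used here. Per the labels' protocols, the kit for total RNA was stranded. Of 60649 genes, 42028 had a symbol in a supplied table, and positions came from GENCODE 29.

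Counts were filtered with filterByExpr, scaled by TMM and fitted in edgeR 4.0.16 (R 4.3.3) as 4 group means over the 16 libraries. A gene was called at a Benjamini-Hochberg adjusted p below 0.05 over all genes tested. Unless a sentence names another tool, adjusted p-values come from this quasi-likelihood test, and the standard error is the size of the log2 change over the root of its F value. CPM use the deposited counts and TMM-scaled library sizes. The CPM of the cell type markers are instead scaled by all counts of a library, without TMM. All 4 same-numbered pairs met the pairing rule (every correlation above 0.1), so the fit with the replicate number as a block is given too. Pairs of different numbers reached up to 0.122, so this rule alone does not set same-numbered pairs apart. No label ties the numbers to a day or culture. Replicate 4 is also the second library set, so for that number pairing and library set cannot be told apart. Replicates 1 to 3 of both agents lie in the first set, with same-number correlations of 0.263, 0.212 and 0.307.

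The members, the 45 gene lists and the tests were chosen with earlier results of these data known. The genes named are the 10 largest rises and falls at a mean of 5 CPM or more without overlap, up to 4 called members per described list, genes on opposite sides of vehicle, and the targets. Members of that selection and of the lists that are not reported here stay in the counts. That rule was applied to the blocked fit after its counts were seen. The comparison was repeated with DESeq2 1.42.0, with RLE size factors, without the filter, with a term for the library set, within the first library set, without combination replicate 2, on the 8 libraries alone, on all 64 libraries, with size factors that ignore mitochondrial and abundant non-coding RNA, and without each library or replicate number. The scripts were tested on simulated data.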

Additional observations from a re-analysis of the deposited data

Results flagged for a closer look

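Within groups of 4 libraries, 8 of 66 groups of named genes held a library far from the other 3, where chance flags about 1 in 20. Of these, 6 were replicate 4, of the second library set: ACSL3 at 110.5 CPM with TMP195 and 160.5 CPM with MYCi975, HDAC5 at 56.05 CPM with TMP195, and SESN2 at 60.5 CPM, B3GAT1 at 5.015 CPM and HDAC4 at 33.5 CPM with MYCi975. The others were LSS at 12.7 CPM in MYCi975 replicate 1 and DNAJC3 at 93.9 CPM in MYCi975 replicate 3. The part of the library set in these values was not tested.

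The contrast of TMP195 over MYCi975 differed between H1703 and H460 (edgeR interaction, adjusted p below 0.05) for 4 named genes on the group means: SREBF2 by -1.401, INSIG1 by -2.349, IDI1 by -1.679 and HMGCS1 by -1.788 on the log2 scale. With the replicate block these were -1.399, -2.351, -1.683 and -1.787 in the same order of genes. Called with the block alone, and lower in H1703, were SCD (-1.135), STARD4 (-1.229), LSS (-1.416), DHCR7 (-1.38), KLF5 (-0.6007), MXD4 (-0.6268) and FADS1 (-0.6194). Called with the block alone, and higher in H1703, were CREB3L2 (0.565), DDIT4 (0.8924), HSPA4L (0.5367), L3MBTL3 (0.7245) and WARS1 (0.7827). Between H1703 and H1755 the blocked fit called CREB3L2 (0.6394), HSPA4L (0.5015) and KLF5 (-0.7681). In H460, replicates 1 and 2 of both agents stand apart by their EEF1G counts, and their part in the block-only differences was not tested.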

How the results depend on the processing

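No named gene that was called reversed its direction under any alternative run; HDAC4 and HDAC9, called in none, ran from -0.10 to 0.02 and from -0.12 to 0.03 (log2) on the group means. The count of 4 genes (1 higher, 3 lower with TMP195) became 94 (49 and 45) with the replicate number as a block, that is with same-numbered libraries as pairs, 65 (38 and 27) with a term for the library set, 62 (32 and 30) within the 11 libraries of the first set, 48 (24 and 24) with DESeq2, 9 (3 and 6) without the filter on low counts, and 2 (lower 1) with 1 fit of all 64 libraries. Leaving out a library or replicate number gave 1 to 25 genes (higher 1 to 14, lower 0 to 11), with 1 without replicate 1, 25 (14 and 11) without replicate 4 and 19 (11 and 8) without MYCi975 replicate 4. Of the 94 blocked calls, 57 were shared with the library set term (60.6% of 94 and 87.7% of 65) and 29 with the first set on the group means (30.9% of 94 and 46.8% of 62). The blocked count was 4 (1 and 3) with no block, 375 (200 and 175) without the filter, 975 (501 and 474) within the 11 libraries of the first set, and 280 (148 and 132) with DESeq2. Without combination replicate 2 it was 320 (171 and 149), which held all 94 genes (29.4% of the 320). Leaving out a replicate number gave 9 to 144 blocked calls: 11 (4 and 7) without replicate 1, 9 (4 and 5) without replicate 3, 109 without replicate 2 and 144 (74 and 70) without replicate 4. The differences between lines, 21 genes against H460 and 2 against H1755, became 279 and 32 with the block and 37 and 23 with DESeq2, and 9 against H460 without its replicates 1 and 2. The causes of these shifts were not tested, except that a fit without libraries has fewer samples. The alternatives of the blocked fit other than no block, and those without combination replicate 2 or H460 replicates 1 and 2, were chosen after seeing the data. At 18243153 counted reads or more per library, genes near 0 CPM, such as EPCAM and PTPRC, were removed by the filter and not compared.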
